A study of Mus musculus with 44 samples.

Results

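The m6A enriched and m6A depleted transcripts of hepatic leukemia factor expressing cells (HEC) were determined from 4 of the 44 libraries of the series. The members were chosen by their column labels. They were 2 libraries of RNA pulled down with an antibody against m6A (IP) and 2 libraries of the RNA before pull-down (input), paired by replicate number. The study isolated skeletal stem cells and their progeny from the growth plate region of mice at postnatal day 3 and profiled m6A by SLIM-seq, a pull-down protocol for very small amounts of RNA. HEC were one of 8 populations sorted with antibodies to surface proteins from C57Bl6 pups. All 4 HEC libraries carried the labels wild type, no treatment and batch 1. The study uses wild type for its Mettl3 fl/fl controls without Cre, and whether the HEC donors carried the floxed allele is not given in the sources used here. The study collected its postnatal day 3 samples from several independent litters and treats its replicates as biological, but the sources used here do not tie a library to a litter or give the pups pooled in it. The p-values therefore measure only the spread between libraries. That spread was estimated jointly over the 32 wild-type libraries of all 8 populations, of which HEC gave 4.

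m6A is a methyl group that the METTL3 and METTL14 complex adds to adenosines of RNA while they are transcribed. It is laid down most often within a short consensus, commonly read as GGACT in DNA letters, and is known to gather in long internal exons and near stop codons. YTH domain proteins bind it and alter the stability, export and translation of the transcript. Because the pull-down recovers whole fragments or transcripts, an IP over input ratio per gene is a relative recovery and not a methylated fraction. Ribosomal RNA carries m6A at a few known sites placed by other enzymes, so an enriched gene in such a table need not be a METTL3 target.

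The identity of the sorted cells was checked in the inputs in CPM, counts scaled to the library total and to 1e+06. Prg4, which encodes lubricin of the joint surface, lay at 7757 and 6148 CPM in the HEC inputs, above the 105 to 3420 CPM of the 14 other wild-type inputs. Mgp, the matrix Gla protein that restrains calcification, lay at 913 and 792 CPM, inside the range of the other inputs, 176 to 1847 CPM. Hlf, the gene the population is named for, lay at 5.31 and 3.28 CPM and did not stand above the other inputs, which reached 7.65 CPM. Enpep, the antigen 6C3, lay at 55.7 and 52.6 CPM and above every other input. The inputs of the 6C3 population came near, at 44.7 and 40.5 CPM, and the rest lay at 2.22 to 8.35 CPM. The summed chondrocyte markers reached 84630 and 107000 CPM in the HEC inputs, within the 8719 to 141100 CPM of the others. Erythroid markers summed to 160.4 and 73.9 CPM in the HEC inputs, the first above and the second within the 3.92 to 144 CPM of the others, and to 352 and 230 CPM in the HEC IPs. Leukocyte markers summed to 36.8 and 29.9 CPM, within the range of the others, with Ptprc, the CD45 antigen used to remove blood cells, at 0.079 and 0.062 CPM. In sorted bulk RNA fewer cells of a type and less RNA per cell cannot be told apart, and the part of other cell types in the results was not tested.

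Depth was 26504908 and 34501959 counts in the inputs and 23538128 and 27704307 counts in the IPs. The 2 inputs correlated at r = 0.975 and the 2 IPs at r = 0.915 across genes on the log2 CPM scale, with genes not being independent. Mitochondrial genes took 0.627% to 0.919% of the input counts and 4.67% to 5.14% of the IP counts, and Rn18s-rs5, an 18S ribosomal RNA entry, 0.0776% to 0.372% and 1.78% to 3.02%. The same shift was present in the IPs of the other downstream populations, PCP, THY, BLSP and 6C3, at 4.53% to 9.10% for mitochondrial genes.

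Of 16541 genes tested, 1510 were enriched in the HEC IP (percent called 9.13%) and 2140 were depleted (12.9%), by edgeR's quasi-likelihood test at an adjusted p under 0.05. The enriched genes took 15.98% and 13.2% of the input counts and 38.7% and 37.7% of the IP counts, while the depleted genes took 38.5% and 42.2% of the input counts and 17.8% and 18.1% of the IP counts. The median enriched gene was 2.47-fold higher in IP and the median depleted gene 2.54-fold lower. All called genes of both directions had IP over input ratios on the same side of 1 in both replicates. With 2 pairs a gene would seldom be called otherwise, so this adds no separate support. With the study's cutoffs for m6A-tagged genes, a log2 fold change above 1 and an unadjusted p under 0.05, applied here to the edgeR fit, 1438 genes were tagged (8.69%) and 2129 passed the mirror rule (12.9%). The study applied them to DESeq2. Run here on the same 16541 genes without the replicate block, DESeq2 tagged 2206, which is not the study's own count. Across the tested genes the log2 ratios of the 2 replicates correlated at r = 0.555, and at r = 0.806 over the 10546 genes with at least 100 counts in each input. The counts depended on both replicates: with replicate 1 left out 832 genes were enriched and 1022 depleted, and with replicate 2 left out 556 and 815. The median log2 fold change over all tested genes was -0.13, so directions near that value depend on the scaling.

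**Figure D1:**
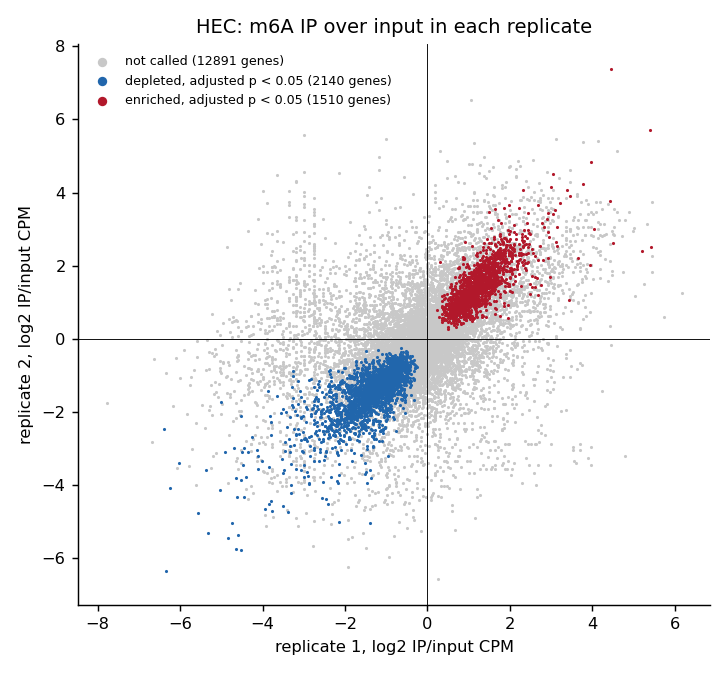
Each point is 1 of the 16541 tested genes, with the log2 ratio of IP to input CPM in replicate 1 on the horizontal axis and in replicate 2 on the vertical axis. The 1510 enriched genes (red) lie in the upper right and the 2140 depleted genes (blue) in the lower left, while many uncalled genes (grey) have opposite signs in the 2 replicates.

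Ribosomal and mitochondrial RNAs headed the enriched genes that had at least 10 counts in each input. For mt-Rnr1, the 12S ribosomal RNA of the mitochondrion (chrM:70-1024, GRCm38), the inputs held 345 and 205 CPM and the IPs 3780 and 3052 CPM. The IPs lay above the inputs without overlap, and the log2 fold change was 3.67 ± 0.20 (SE, edgeR, adjusted p = 2.3e-07). For mt-Rnr2, the 16S ribosomal RNA, it was 3.18 ± 0.25. Rn18s-rs5 rose by 3.78 ± 0.53, with log2 ratios of 3.05 in replicate 1 and 4.52 in replicate 2, since its inputs alone ranged from 3873 to 829 CPM. Lars2, the mitochondrial leucyl-tRNA synthetase (chr9:123366927-123462666), rose by 3.73 ± 0.45, from 184 and 92.4 CPM to 1929 and 1543 CPM. Reads of Rn18s-rs5 could come from any copy of the repeated ribosomal DNA, and whether the authors' counting split them is not given in the sources used here.

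Of the mitochondrial messenger RNAs, mt-Nd4 and mt-Nd5, subunits of complex I, had log2 fold changes of 2.68 ± 0.24 and 2.59 ± 0.26. Among nuclear messenger RNAs of at least 50 CPM in input, Pmepa1 was the most enriched after Lars2. Pmepa1, a membrane protein that dampens TGF-beta signalling (chr2:173224458-173276533), lay at 71.7 and 44.6 CPM in the inputs and at 350 and 307 CPM in the IPs (log2 fold change 2.53 ± 0.26, adjusted p = 9.7e-06). Both IPs lay more than 4-fold above both inputs. Next came 3 short transcripts: Rps29 at 2.51 ± 0.26, Ndufa3 at 2.48 ± 0.25 and Rps27 at 2.43 ± 0.26. Below 50 CPM, Hsd17b11, a steroid dehydrogenase of lipid droplets, came first: it held 34 and 23 counts in the inputs and 198 and 257 in the IPs, a log2 fold change of 3.25 ± 0.62. Fzd8, a Wnt receptor, held 60 and 68 counts against 469 and 470, Riiad1 held 34 and 25 against 166 and 236, and Ttn, the giant protein of the muscle sarcomere, held 24 and 31 against 192 and 165. Gm44187, an unclassified transcript within an intron of Rab7 on the same strand, held 249 and 293 counts against 1537 and 1978. It cannot be told apart from unspliced Rab7 RNA in these counts. Gm15564, annotated antisense to exons of Kpna1 and Parp9, rose by 2.98 ± 0.46, and without a stated strand setting its reads and those of its partners cannot be told apart. The same holds for Riiad1 with Celf3, Ttn with Gm13938 and mt-Nd5 with mt-Nd6, whose exons overlap on opposite strands.

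The most depleted genes of at least 50 CPM in input were messenger RNAs for enzymes, adaptors and matrix proteins. Mical1, which oxidises and disassembles actin filaments (chr10:41476314-41487032), lay at 110 and 122 CPM in the inputs and at 7.99 and 4.61 CPM in the IPs. That is 19.02-fold lower, a log2 fold change of -4.25 ± 0.45 (edgeR, adjusted p = 1.2e-05). Anxa11, a calcium-dependent phospholipid binding protein (chr14:25842156-25886804), fell from 49.7 and 53.5 CPM to 3.52 and 2.42 CPM, and Rtkn (chr6:83135463-83152579), from 72.0 and 88.7 CPM to 4.92 and 7.69 CPM. Kctd10, a substrate adaptor of cullin 3 ligases, was 12.7-fold lower. Matn4, a cartilage matrilin (chr2:164389393-164405160), was the most abundant of these genes and the most precise: 415 and 399 CPM in the inputs against 41.7 and 37.1 CPM in the IPs, a log2 fold change of -3.37 ± 0.20 (adjusted p = 5.2e-07). The other 7 named by the same rule, Fam83g, B3gnt9, Dok1, Pigt, Ppp2r5b, Chpf2 and Il4ra, had log2 fold changes between -3.14 and -2.90. B3gnt9 and Chpf2 are glycosyltransferases, Pigt belongs to the transamidase that attaches GPI anchors, and Il4ra is the receptor of interleukin 4.

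**Figure D2:**
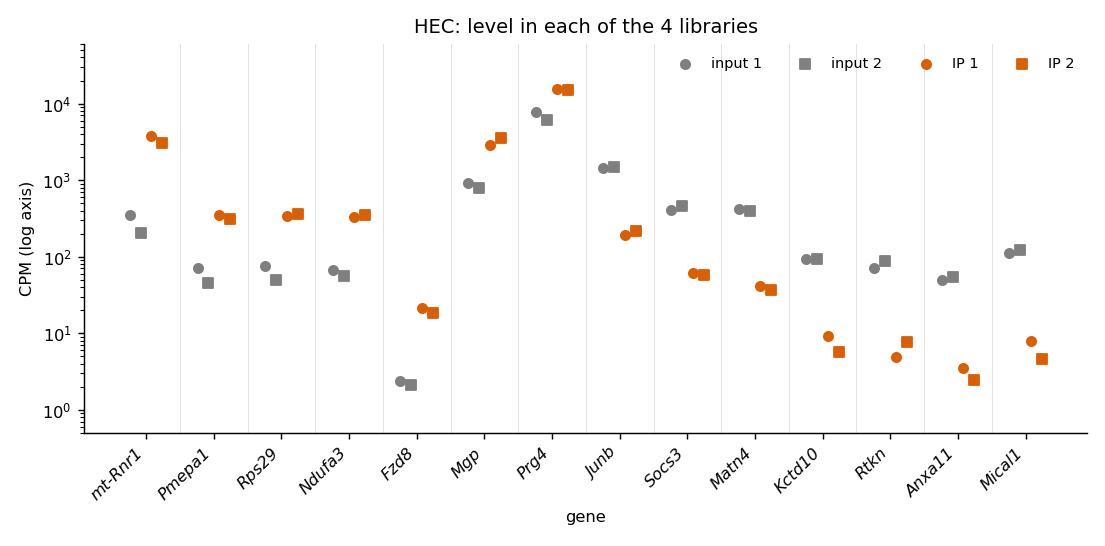
CPM on a log axis in the 2 input libraries (grey) and the 2 IP libraries (orange) of HEC for 14 genes, circles for replicate 1 and squares for replicate 2. From mt-Rnr1 to Prg4 the IPs lie above the inputs and from Junb to Mical1 below. All 14 were chosen among called genes, so this separation largely follows from the choice.

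At the low end the depleted genes had no IP counts at all. Of the tested genes, 90 had 0 counts in both IPs with at least 10 counts in each input, and 17 of them passed the test. They passed the filter on low counts through their inputs alone and so had to be lower in the IPs, which means that their number is no support for depletion. Adora2a, a receptor for adenosine, held 139 and 178 counts in the inputs and 0 in both IPs, which against a floor of 3 counts per library is at least 43.8-fold lower. B3galt4 held 48 and 94 input counts (at least 19.1-fold lower), Lrg1 80 and 58 (at least 19.7-fold) and Atp6v1g2 40 and 89 (at least 17.3-fold). Pcdhga11, Cbx2, Rarb, Gm1045, Rtn4rl2, Ccdc159 and Kcns3, with 18 to 70 input counts, were at least 7.35-fold to 15.7-fold lower. The floors cover counting error only, and amplified reads without molecular identifiers are not independent molecules. Pcdhga11 shares its last exons with the other gamma protocadherins, so its own counts are uncertain. Atp6v1g2, Rarb, Ccdc159 and Kcns3 overlap exons of genes on the opposite strand. Without a stated strand setting their counts are uncertain too.

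Genes with hardly any input counts are given apart. There were 139 tested genes with at most 3 counts in each input, 0.840% of those tested, and 51 of them had none in either input. All 139 had a fitted log2 fold change above 1, from 1.94 to 9.54 with a median of 4.91, which follows from the filter, since such a gene was tested only where its IP counts were high. Therefore their count says nothing about m6A. By the same cutoffs in the edgeR fit 39 of them would be tagged, but 2 passed the adjusted test. Gm38374 (chr1:84807158-84809190) held 0 and 0 counts in the inputs and 62 and 91 in the IPs, at least 29.9-fold higher, and Gm44022 held 0 and 0 against 22 and 49, at least 13.6-fold higher. Both are unclassified transcripts that lie within an intron of a gene on the same strand, Trip12 and Tmtc1. Only 35 of the 139 were protein coding, against 13598 of the 16541 tested. Of the 130 with coordinates, 71 overlapped a protein-coding gene (54.6%, against 29.5% of all tested genes). The 139 genes reached at most 94 counts in an IP. With genes of fewer than 10 counts in either input left out, 1491 genes were enriched and 2140 depleted.

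**Figure D3:**
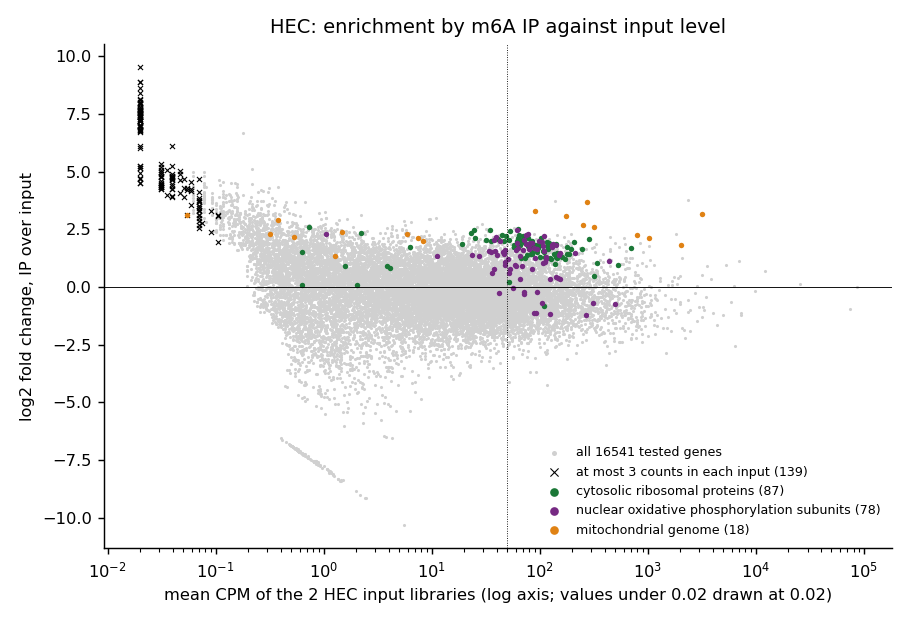
Log2 fold change of IP over input against the mean CPM of the 2 HEC inputs on a log axis for the 16541 tested genes (grey), with the 139 genes of hardly any input as crosses and 3 gene lists in colour. The crosses rise to the upper left, the diagonal streak at the lower left is the genes with 0 IP counts, and most ribosomal protein and oxidative phosphorylation genes lie above 0 near the dotted line at 50 CPM.

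By function, the translation and respiration machinery was most enriched. Counts called in a list are to be read against the shares of all tested genes, 9.13% enriched and 12.9% depleted. Of 87 cytosolic ribosomal protein genes tested, 79 were enriched and 1 was depleted, with a median log2 fold change of 1.74 against -0.13 over all genes. The summed ribosomal protein share rose from 0.719% to 0.984% of the input counts to 2.50% to 2.60% of the IP counts. Both subunits took part, with 32 of 35 Rps genes and 46 of 50 Rpl genes enriched. Rpl5, a carrier of 5S ribosomal RNA and the most abundant of the list, lay at 763 and 644 CPM in the inputs and at 2243 and 2245 CPM in the IPs, and Rplp0, of the ribosomal stalk, at 576 and 478 CPM against 1008 and 1003 CPM. The exception, Rpl7l1, fell by 0.85 on the log2 scale. Ribosomal protein genes have many processed pseudogenes, so their counts are uncertain where reads match both.

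Nuclear oxidative phosphorylation genes were enriched in 59 of 78 cases and depleted in 6, with a median of 1.41. Complex I, which takes electrons from NADH, had 32 of 37 genes enriched and complex IV, the cytochrome oxidase, 11 of 12, whereas of the 4 succinate dehydrogenase genes of complex II none was enriched and 1 was depleted. Ndufa4 lay at 88.9 and 67.7 CPM in the inputs and at 384 and 370 CPM in the IPs. The depleted genes included Uqcrc1 (-1.23), Sdha (-1.17), Ndufv1 (-1.14), Atp5b (-0.75) and Atp5a1 (-0.69), given as log2 fold changes, which encode large catalytic or core subunits. Among transcripts of up to 1500 nt, 49 of 55 genes of this list were enriched and 0 depleted, and among longer ones 9 of 22 were enriched and 6 depleted. This split and the complexes were chosen after the values were seen. Of the 18 mitochondrial genome genes tested, 13 were enriched and 0 depleted, with a median of 2.33, and the other 5 had log2 fold changes from 1.34 to 3.13.

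Translation factors, by contrast, moved both ways, with 16 of 37 enriched and 7 depleted. Tpt1, the translationally controlled tumour protein, lay at 367 and 295 CPM in the inputs against 1230 and 1152 CPM in the IPs, and Eif1, which guards start codon choice, at 1033 and 1037 CPM against 2278 and 2433 CPM. Eif4h, a helicase cofactor, lay at 283 and 304 CPM against 99.0 and 102 CPM. Proteasome subunits also divided, 9 of 42 enriched and 14 depleted. Of the 18 genes of the 20S catalytic core (Psma and Psmb) 8 were enriched and 0 depleted, and of the 20 genes of the 19S regulatory particle (Psmc and Psmd) 0 were enriched and 13 depleted. Psmb3 rose by 1.17 ± 0.17 and Psmd3 fell by 1.82 (SE 0.33) on the log2 scale. The median transcript length was 1192 nt in the core and 1887 nt in the regulatory particle, and the division was noticed in these data.

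Other lists with more enriched than depleted members were long noncoding RNAs, clustered histones and chromatin regulators. Of 26 nuclear and snoRNA-host long noncoding RNAs, 10 were enriched and 2 depleted (median 0.84). H19, an imprinted RNA of growing tissue, lay at 681 and 521 CPM in the inputs and 2672 and 2552 CPM in the IPs, Xist, which silences an X chromosome, at 136 and 50.5 CPM against 427 and 291 CPM, and Malat1, of nuclear speckles, at 2432 and 1671 CPM against 4688 and 4907 CPM. Tug1 was depleted, at 116 and 177 CPM against 70.3 and 66.3 CPM. Of 39 clustered histone genes 7 were enriched and none depleted (median 1.09), with Hist1h4d at 2.004 ± 0.48. Of 55 histone lysine methyltransferases and demethylases 12 were enriched and 4 depleted (median 0.19). Kdm6b, which removes methyl groups from histone H3 lysine 27, was the most abundant of these and held 965 and 1077 CPM in the inputs against 3194 and 3821 CPM in the IPs, while Kdm4b, a demethylase of lysine 9, held 34.1 and 40.4 CPM against 7.45 and 4.65 CPM.

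Of the forkhead factors 6 of 27 were enriched and 1 was depleted. Foxc1, needed for skull and cartilage development, lay at 15.3 and 10.6 CPM in the inputs and 58.1 and 67.7 CPM in the IPs (log2 fold change 2.30 ± 0.35), and Foxo1 and Foxo3, which hold cells in quiescence, both at 0.95 ± 0.24. A further list had 10 of 17 tested genes enriched and 0 depleted (median 0.77). It joined genes the study names as m6A-tagged, across populations or among those changed without Mettl3, with other genes. The others were Gli1, which the study proposes is not a direct m6A target, and Acan, Ucma, Epyc and Ift20. The study's text does not name these last as m6A-tagged. The study drew its m6A-tagged genes from libraries of this same series, so the list is no independent evidence. Of the 3 genes listed as HEC markers, Prg4 and Mgp were enriched and Hlf did not pass (log2 0.91 ± 0.63, adjusted p = 0.36), while in level Prg4 alone stood above the other inputs. Prg4 (chr1:150449412-150466165) rose from 7757 and 6148 CPM to 15350 and 15230 CPM, 2.21-fold (log2 1.15 ± 0.19, adjusted p = 4.4e-04), and Mgp (chr6:136872435-136875823) from 913 and 792 CPM to 2850 and 3547 CPM, 3.74-fold (log2 1.90 ± 0.19, adjusted p = 9.3e-06). Mgp has a transcript of 617 nt with no GGACT in it, and Prg4 one of 4263 nt with 2.

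Among the lists with more depleted members, chondrocyte markers had 6 of 15 depleted and 1 enriched (median -0.75). Col2a1, the main collagen of cartilage, lay at 64420 and 83420 CPM in the inputs and at 35850 and 40110 CPM in the IPs, and Col9a2, which decorates its fibrils, at 1917 and 2462 CPM against 444 and 487 CPM. Comp, the cartilage oligomeric matrix protein, was 2.75-fold lower. Acan and Sox9 did not pass, at log2 fold changes of 0.34 ± 0.22 and -0.67 ± 0.24 (adjusted p = 0.32 and 0.061). Collagen chains as a list had 7 of 43 enriched (16.3%) and 9 depleted (20.9%, median -0.01). Matrix proteins of cartilage and bone had 8 of 49 enriched (16.3%) and 14 depleted (28.6%, median -0.16). In both lists the shares of both directions were above those of all genes. Fbn1 and Fbn2, the fibrillins, were among the enriched.

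Immediate early genes, which a cell transcribes within minutes of a stimulus, were depleted in 11 of 27 cases (40.7%) and enriched in 5 (18.5%, median -0.43). Socs3, the feedback inhibitor of cytokine receptors, lay at 408 and 458 CPM in the inputs against 60.6 and 58.0 CPM in the IPs (log2 -2.86 ± 0.19, adjusted p = 8.7e-07). Junb, an AP-1 subunit, lay at 1434 and 1484 CPM against 191 and 214 CPM, and Jun at 857 and 796 CPM against 262 and 255 CPM. Jund, the third Jun gene, went the other way, at 61.9 and 55.5 CPM against 182 and 167 CPM. Myc was 4.24-fold lower. Glycolysis and hypoxia genes were depleted in 12 of 37 cases (32.4%) and enriched in 4 (10.8%, median -0.53). Among them were the lactate exporter Slc16a3 at -2.53 ± 0.42, the phosphofructokinase Pfkl at -2.31 ± 0.45 and the angiogenic factor Vegfa at 1.83 ± 0.25. In S phase and mitosis genes 9 of 44 were depleted (20.5%) and 2 enriched (4.55%, median -0.31).

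Signalling lists had called members in both directions. Wnt pathway genes were enriched in 11 of 49 cases (22.4%) and depleted in 9 (18.4%), against 9.13% and 12.9% of all genes, and the receptors Fzd8 and Fzd9 moved in opposite directions: Fzd9 lay at 189 and 243 CPM in the inputs and at 24.3 and 36.3 CPM in the IPs. BMP and TGF-beta genes were enriched in 7 of 50 (14%) and depleted in 10 (20%). Hedgehog genes, with 2 and 3 of 17, and Notch genes, with 2 and 3 of 23, lay near the shares of all genes. Bmpr2, the type II BMP receptor, rose by 1.53 ± 0.24, and Ltbp4, which tethers latent TGF-beta, fell by 2.11 (SE 0.29) on the log2 scale. Of 23 writers, readers and erasers of m6A, Wtap (1.86 ± 0.40) and Rbm15 (1.53 ± 0.34) of the writer complex were enriched (8.70%), and the demethylase Fto (-1.52 ± 0.29), the reader Ythdf3 (-1.28 ± 0.24) and Igf2bp2 were depleted (13.0%), shares close to those of all genes. Mettl3 itself, at 12.03 and 11.1 CPM in the inputs and 10.2 and 6.80 CPM in the IPs, did not pass (adjusted p = 0.47). Of 333 Zfp zinc-finger genes 13 were enriched and 21 depleted, shares below those of all genes, and of 24 Hox genes none was called. Ubiquitin ligase and conjugating genes were enriched in 9 of 47 cases (19.1%) and depleted in 7 (14.9%, median 0.27). Of 32 abundant cytoskeleton genes 10 were enriched (31.2%) and 7 depleted (21.9%, median -0.03). Of 30 joint and tendon genes 5 were enriched (16.7%) and 7 depleted (23.3%, median -0.24). Among markers of other cells, 2 of 8 erythroid genes, both alpha globins, were enriched, no leukocyte gene of 10 was called, 1 of 9 endothelial genes was depleted, and 1 of 10 muscle genes, Ttn, was enriched. Schwann and neural markers had the lowest median of all lists, -2.25, with 2 of 11 depleted and 1 enriched, and most held few counts. Ngfr, a neurotrophin receptor, held 345 and 683 counts in the inputs and 115 and 38 in the IPs, while S100b, a calcium binding protein also found in cartilage, held 1230 and 1340 against 1773 and 2441.

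**Figure D4:**
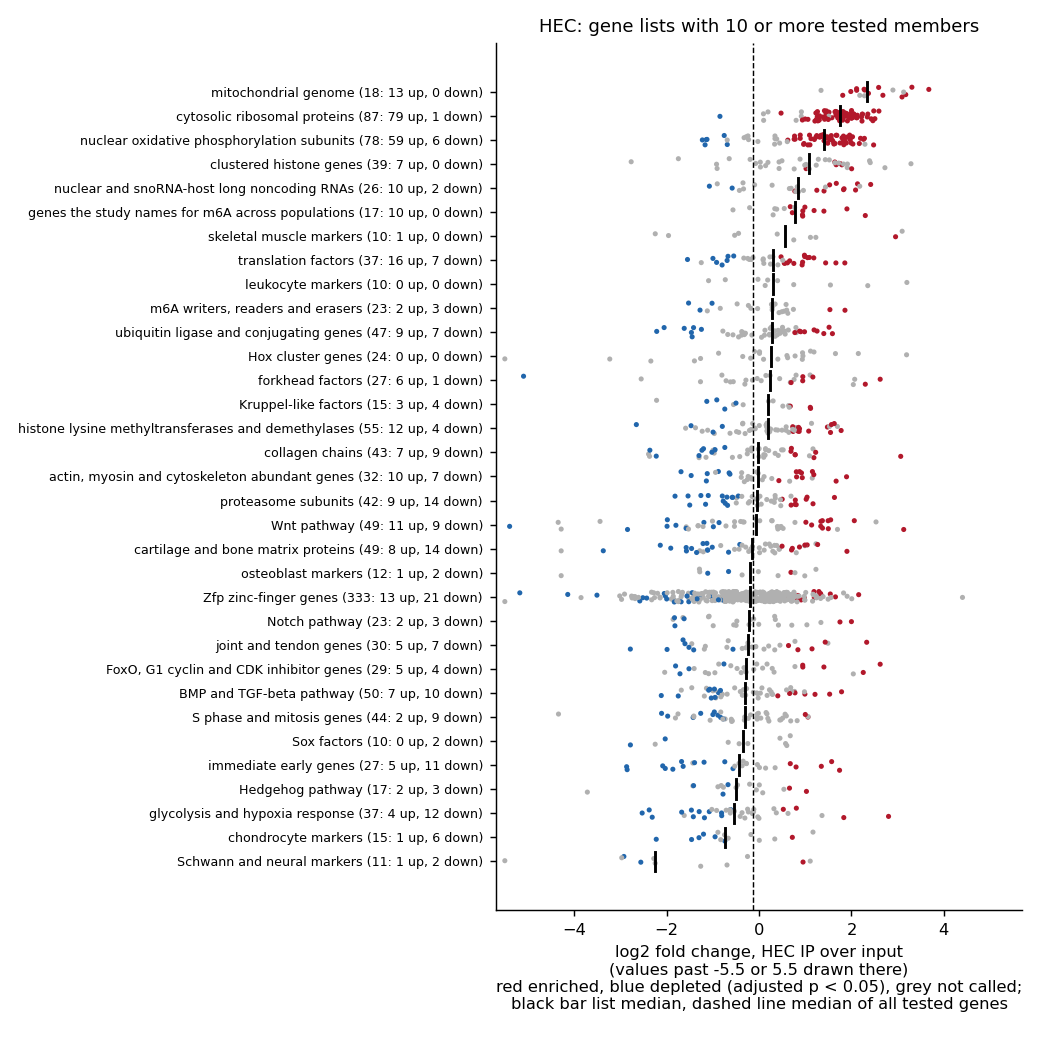
Log2 fold change of IP over input for each tested member of the gene lists with 10 or more tested members, sorted by median (black bar), with enriched members red, depleted blue and uncalled grey. Mitochondrial genome, ribosomal protein and oxidative phosphorylation genes lie apart at the right of the dashed median of all genes (-0.13), while most other lists straddle it.

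Pairs of related genes showed opposite recovery, and their sites are shown because the consensus was present in both members. The pairs were chosen after their values were seen. Has2, a hyaluronan synthase, lay at 8.69 and 3.53 CPM in the inputs and at 34.1 and 22.9 CPM in the IPs (log2 2.33 ± 0.39), and its paralog Has1 at 525 and 471 CPM against 71.1 and 73.2 CPM (log2 -2.78 ± 0.20). Egln1, an oxygen-sensing prolyl hydroxylase, lay at 8.61 and 4.09 CPM against 46.4 and 37.2 CPM (log2 2.80 ± 0.38), and its paralog Egln2 at 65.2 and 67.8 CPM against 10.6 and 15.4 CPM (log2 -2.38 ± 0.31). In both pairs the enriched member had the longer 3′ UTR in its longest annotated transcript, 2032 nt in Has2 against 301 nt in Has1 and 2121 nt in Egln1 against 498 nt in Egln2. For each gene the GGACT nearest the end of the coding sequence is given 5′ to 3′ on the transcript strand (GENCODE vM21, GRCm38), with the motif in capitals and 8 bases on each side. Has2 and Has1 each held 5 GGACT, Egln1 held 4 and Egln2 held 3, and all 4 sites shown lie in the 3′ UTR.
Has2, chr15:56667512-56667532, minus strand: tgctgctgGGACTtgaacaaa
Has1, chr17:17843532-17843552, minus strand: ctttctggGGACTcagtttac
Egln1, chr8:124910638-124910658, minus strand: ccttctgtGGACTcgtggaca
Egln2, chr7:27158744-27158764, minus strand: cagtgtatGGACTgggctgcc
The most depleted abundant genes carried such sites too, 89 nt after the end of the coding sequence in Mical1 and 174 nt after it in Matn4, whereas the enriched Ndufa3 held a single one, 21 nt before that end.
Mical1, chr10:41486969-41486989, plus strand: cgccatctGGACTgcttagtc
Matn4, chr2:164389470-164389490, minus strand: gtggggaaGGACTgctacact
Ndufa3, chr7:3620063-3620083, plus strand: ccaagcttGGACTggctgaag
A match is a run of letters and no measured site, and no file used here places m6A within a transcript.

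Over all protein-coding genes with a transcript sequence, GGACT was at least as common in depleted as in enriched transcripts. Of 2067 depleted genes 95.7% held it, of 1343 enriched genes 84.1%, and of all 13575 tested 92.7%. Its median density was 1.15 per kb in depleted, 0.94 per kb in enriched and 1.06 per kb in all transcripts. For GGAC followed by any base but guanine the medians were 4.15, 3.10 and 3.65 per kb. AGTCC, the reverse complement of GGACT, has the same GC content and was counted for reference, with medians of 0.92, 0.86 and 0.89 per kb. It was held by 91.6% of depleted, 81.8% of enriched and 88.9% of all transcripts. The lower share in enriched transcripts was therefore not particular to GGACT, and a short transcript has less room for either. The median GC content was 53.4% in depleted, 48.4% in enriched and 50.4% in all transcripts. These are descriptions of 1 longest transcript per gene, which may not be the isoform present in HEC.

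Recovery followed transcript length in a U shape. Of 326 genes with transcripts up to 750 nt, 49.7% were enriched and 0.613% depleted, with a median log2 fold change of 1.597. From 2000 to 3000 nt, with 2987 genes, 4.45% were enriched and 22.6% depleted (median -0.70), and above 6000 nt, with 1903 genes, 16.2% were enriched and 4.89% depleted (median 0.29). Both replicates showed it, with medians in those classes of 1.35, -0.64 and 0.33 in replicate 1 and 1.78, -0.65 and 0.30 in replicate 2. With ribosomal protein, oxidative phosphorylation and mitochondrial genome genes left out, the shortest class still had a median of 1.52 over 261 genes. Transcripts under 1000 nt made up 23.7% of the enriched and 0.242% of the depleted genes. The enriched genes also had fewer exons, a median of 6 against 10 in the depleted, and a shorter coding sequence, 876 nt against 1464 nt, while the 3′ UTR medians were 1111 nt and 1063 nt. Among transcripts of 2000 to 3000 nt, the median 3′ UTR was 1354 nt in the 133 enriched and 810 nt in the 676 depleted genes, with medians of 6 and 10 exons. Above 6000 nt both orders were reversed. There the median 3′ UTR was 3742 nt in the 309 enriched and 4492 nt in the 93 depleted genes, with medians of 20 and 12 exons. Across all 13575 genes the Spearman correlation of the log2 fold change was -0.05 with exons and 0.04 with 3′ UTR length.

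GC content moved with recovery within length classes. In transcripts of 2000 to 4000 nt the median log2 fold change was -0.13 at up to 45% GC (1131 genes) and -1.18 above 55% GC (1467 genes), and above 4000 nt it was 0.21 and -0.54. In transcripts up to 1000 nt it was 1.52 over 90 genes and 0.97 over 277, above 0 in both. Across the 13575 genes the Spearman correlation of the log2 fold change was -0.27 with GC content, 0.02 with length and -0.10 with the mean input CPM, given as descriptions over genes that share the 4 libraries. The parts of the antibody, the amplification and the counting in these relations were not tested.

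**Figure D5:**
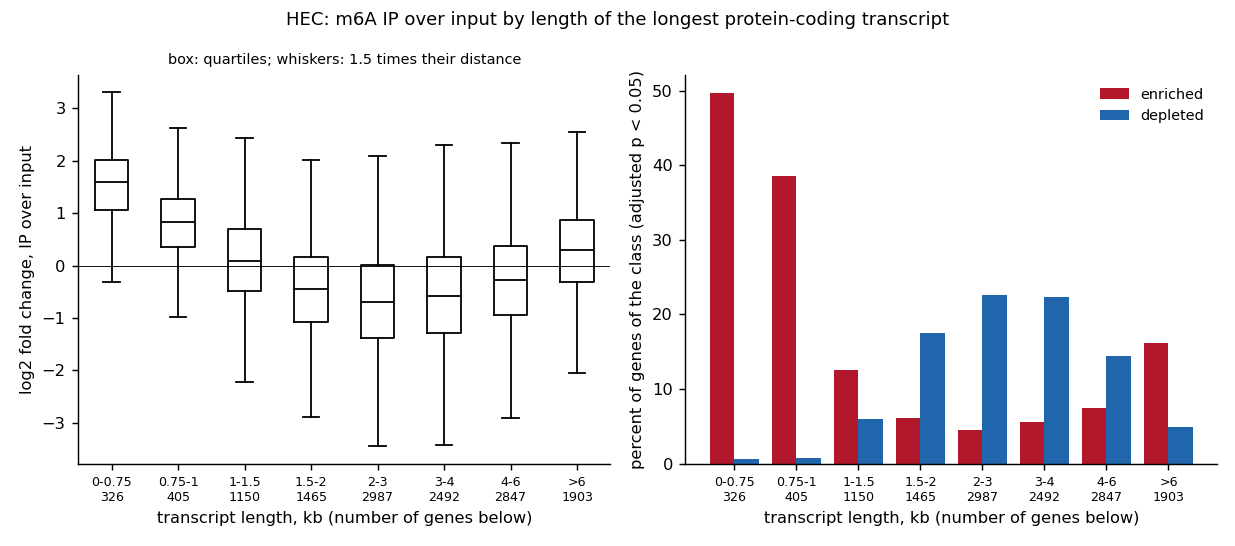
Left, log2 fold change of IP over input by length of the longest protein-coding transcript, boxes for quartiles and whiskers for 1.5 times their distance. Right, percent of genes of each length class that were enriched (red) or depleted (blue). The shortest class has 49.7% enriched, the 2 to 3 kb class 22.6% depleted, and above 6 kb enriched genes again exceed depleted ones.

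No gene differed between HEC and the other downstream populations at an adjusted p under 0.05. The difference was tested as an interaction, the HEC effect minus the mean effect of PCP, THY, BLSP and 6C3, and edgeR called 0 of 16541 genes above (0.00%) and 0 below (0.00%), with a smallest adjusted p of 0.56. At an unadjusted p under 0.05, 95 genes lay above (0.574%) and 168 below (1.02%). Together these are fewer than that cutoff would give if no gene differed, so the counts are no sign of differences. Why so few genes fell under it was not tested. The median SE was 0.58 on the log2 scale. In simulated counts the test recovered 4% of 2-fold and 28% of 4-fold differences. The lack of calls therefore does not show that the populations are alike. The HEC effect can be set beside those of the others, which used other libraries but the same estimate of the spread. Of all tested genes, 10.01% to 11.9% were called enriched and 11.99% to 15.1% depleted in these populations. Of the 1510 genes enriched in HEC, 84.1% to 88.5% were called enriched in each of the 4 populations, and these were 64.4% to 80.7% of the genes called there. Of the 2140 depleted genes, 76.3% to 83.3% were called depleted in each, 71.4% to 82.3% of the genes called there. Matn4 had log2 fold changes of -3.08 to -2.40 in the other 4, Pmepa1 2.38 to 2.91, and Mgp 2.05 to 2.68. The median difference of the ribosomal protein genes was -0.34 against -0.01 over all tested genes, with 5 of 87 below and 0 above at an unadjusted p under 0.05. Such a shift was not particular to them. Mitochondrial genome genes lay at -0.49 and clustered histones at -0.42, while skeletal muscle markers lay at 0.63.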

How the data were processed

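SLIM-seq libraries were made by the authors from about 100 ng of total RNA of sorted cells. Antibody-bound and input RNA were reverse transcribed, pre-amplified by a Smart-seq2 based protocol, which favours polyadenylated RNA, fragmented with Tn5 and sequenced in pairs. Per the study's methods and the submitters' notes, reads were trimmed with fastp 0.20.1, aligned to GRCm38 with HISAT2 2.2.1 and counted per gene with featureCounts 2.0.1. Annotation release and strand setting are not given in the sources used here. The deposited values are raw counts per gene, 46959 entries. The 128 entries with repeated date-like names were left out, at most 0.390% of a library, leaving 46831.

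Counts were analysed with edgeR 4.0.16 (R 4.3.3), TMM scaling, the quasi-likelihood test and Benjamini-Hochberg adjustment over all genes tested. Genes kept by filterByExpr on the 4 HEC libraries were tested in a fit of the 32 wild-type libraries, with a replicate block in each population and an IP effect per population (8 residual degrees of freedom). IP and input were paired by the replicate number in the labels. The study says that sorted cells of a batch were divided between m6A profiling and RNA-seq. Whether the inputs are those RNA-seq libraries is not given in the sources used here. Deviations of same-numbered HEC libraries correlated at 0.052 across genes, so the numbers carried little in the data. CPM used TMM-scaled totals, and log2 ratios per replicate a prior count of 2. Standard errors are the log2 fold change over the square root of F. Replicates differed beyond counting noise in every group, and none were merged.

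Members, lists and tests were chosen with earlier results of these data known. Named genes were the 12 highest and lowest log2 fold changes past the test. They had at least 10 counts in each input and both replicates on the same side. The same was done at 50 CPM or more in input. Up to 6 genes with at most 3 counts in each input were added, and up to 4 members per list (most abundant, largest change). Sort antigens, markers and the mixed list of study genes given above were named as well. Genes and subgroups named beyond this rule (paralog pairs, further list members) were chosen after their values were seen. Transcript features came from GENCODE vM21, the longest basic protein-coding transcript per gene. In simulated counts of 16541 genes, 100 genes were changed 2-fold and 100 changed 4-fold in the HEC IPs. All other genes, and all other populations, had no IP effect. For the HEC comparison the test recovered 9% of 2-fold and 37% of 4-fold changes and called 1 unchanged gene. For the difference from other populations it recovered 4% and 28% and called 0. Far more genes were called in the real HEC comparison, which eases the adjusted cutoff, so 9% and 37% are not the recovery there. Alternatives were other scalings, filters, blocks, DESeq2 1.42.0 and leaving out libraries. Some genes that these rules name are not reported here. The 12 Mettl3 conditional knockout libraries are not analysed here.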

Additional observations from a re-analysis of the deposited data

How the results depend on the processing

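The 1510 enriched and 2140 depleted genes were fitted with a spread shared over 32 libraries. With HEC alone and the replicate block edgeR called 2412 genes enriched, with HEC alone and no replicate block 2549, and DESeq2 2377 with the block and 2748 without it, a form added after seeing the data. Of the 1510 enriched genes, 1499, 1494, 1497 and 1500 were called in those 4 fits. Without the replicate block over 32 libraries 1401 were enriched and 1920 depleted. Genes tagged by the study's rule numbered 2241 with HEC alone and no replicate block, and 2206 by DESeq2 without the block, against 1438. Leaving out HEC replicates 1 or 2 gave 556 to 832 enriched, 815 to 1022 depleted and 981 to 1277 tagged genes; the lone pair is then assumed to vary like the other groups. The difference from other downstream populations stayed at 0 genes in each direction in the alternatives run, leaving out each of their replicates included, except 1 gene below with no low-count filter. DESeq2's size factors moved the median of all genes from -0.13 to -0.04 and gave 1727 enriched and 1849 depleted genes. A gene called enriched in the main fit was called depleted in no alternative, nor the reverse. Of 1852 refitted values of named genes, 102 lost and 86 gained the call and none reversed. Of 379 refitted list medians, 100 moved by more than the spread between replicates, among them 19 of 38 without HEC replicate 1 and 15 of 38 with DESeq2's size factors, so list medians near that of all genes are uncertain. Whether the IP over input ratio reflects m6A or other properties of the RNA cannot be told apart here, since no HEC library without METTL3 or with a control antibody was used.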
